A study of Bos taurus with 6 samples.

Results

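The epidermal growth factor (EGF) receptor family and its ligands were examined as 9 genes chosen by name: the receptors EGFR, ERBB2 and ERBB3, the ligands AREG, EREG, HBEGF, TGFA and BTC, and the receptor inhibitor ERRFI1. Each of the 9 genes was found on a single row among the 32183 rows of the expression tables. RNA was sequenced from rumen epithelial primary cells (REPC), isolated from 1 Holstein bull calf aged 2 weeks that had received only milk replacer. The comparison was between 3 cultures kept with 5 mM butyrate for 24 h and 3 control cultures, and no allele or other agent is named for either group. Because all cultures derive from 1 animal, the p-values below measure the spread between cultures and not between animals. Butyrate is a fermentation acid of the rumen and an inhibitor of histone deacetylases.

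EGFR family receptors are tyrosine kinases of the cell surface that pair with each other when a ligand binds and then signal through the RAS-ERK and PI3K pathways, with known roles in epithelial growth and repair. EGFR binds EGF, amphiregulin (AREG), epiregulin (EREG), HB-EGF (HBEGF), TGF-alpha (TGFA) and betacellulin (BTC), which are made as membrane precursors and released by proteases. ERBB2 has no known ligand and acts as a partner, while ERBB3 has a weak kinase, binds neuregulins and recruits PI3K when paired with ERBB2.

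Expression was given as FPKM, fragments scaled to transcript length and to the mapped total of the library, so that levels can be compared between genes. Total FPKM was lower in every butyrate culture (619401 to 629037) than in any control culture (678035 to 681912). Butyrate cultures also had more genes above 0, with 17306 to 17510 against 16051 to 16193 for controls. Fold changes are differences of log2(FPKM + 0.1), butyrate minus control, tested with limma over the 15813 genes that averaged 0.1 FPKM or more. All 9 genes passed that filter, and in each the control mean alone was at least 0.1. A gene was called when its Benjamini-Hochberg adjusted p was under 0.05. By this rule 5 of the 9 genes were called, 4 higher and 1 lower after butyrate, which is near the background of 58.4% of all tested genes. The background by direction was 32.5% higher and 25.9% lower, a balance that turned after quantile normalization, with 4284 genes called higher and 4679 lower. The study's threshold for differentially expressed genes (DEGs) is a log2 fold change beyond 2 at a p below 0.05 after Bonferroni correction. Applied here to the limma fit, in either direction, it was passed by none of the 9 and by 3.97% of tested genes. The study ran its own test with Cufflinks, so its DEGs need not be those counted here. In 7 of the 9 genes the butyrate and control values did not overlap, against 65.0% of tested genes. The median log2 fold change was 0.31 over the 9 genes and 0.10 over all tested genes.

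**Figure D1:**
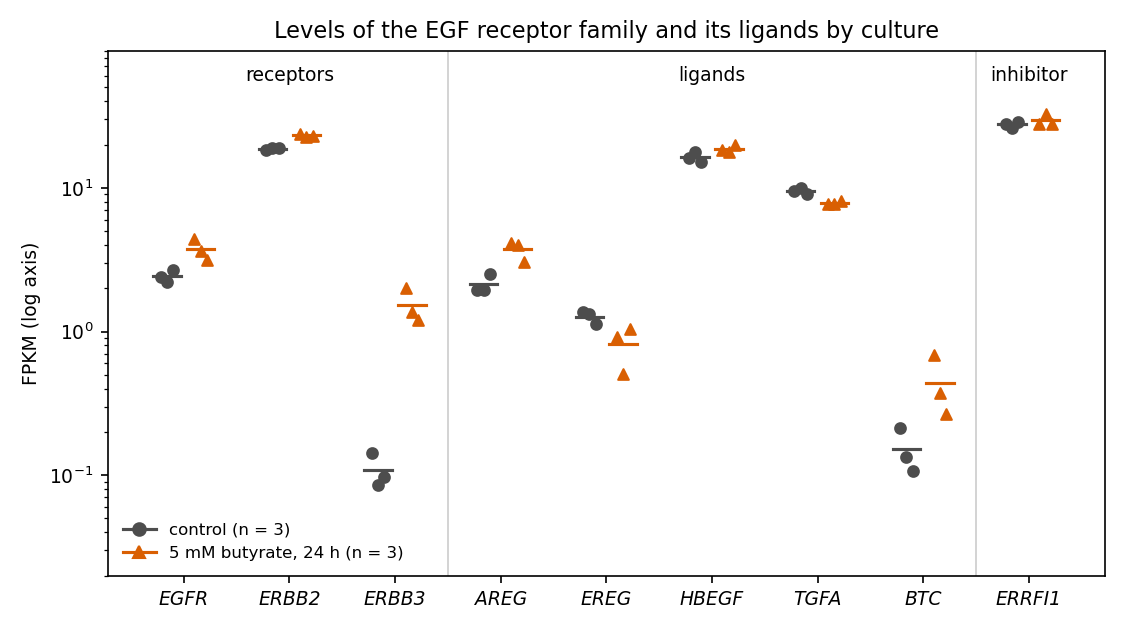
FPKM of the 9 genes in each culture on a log axis, with control cultures as circles, butyrate cultures as triangles and the group mean as a bar. ERBB3 sits between 0.0851 and 0.142 in control and between 1.21 and 2.01 after butyrate, while HBEGF and ERRFI1 overlap between the groups.

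Among the receptors, all 3 were called higher after butyrate, against 32.5% of all tested genes. ERBB3 changed by far more than EGFR or ERBB2. ERBB3, on chromosome 5 from 57539932 to 57560884 (UMD3.1), was close to undetected in control, with FPKM of 0.142, 0.0851 and 0.0967 in control replicates 1 to 3. It reached 2.01, 1.36 and 1.21 in butyrate replicates 1 to 3, and the groups were far apart. The mean rose from 0.108 ± 0.0298 (SD, n = 3) to 1.53 ± 0.423 (SD, n = 3). ERBB3 thus rose by a log2 fold change of 2.95 ± 0.32 (SE; limma, Benjamini-Hochberg adjusted p = 6.29e-05), and its Bonferroni-adjusted p from limma was 0.165. In absolute size this change exceeded that of 95.9% of tested genes. The confidence bounds deposited with each FPKM imply about 9, 5 and 6 fragments for ERBB3 in the control cultures and 124, 88 and 73.6 in the butyrate cultures. The control level thus rests on few fragments, and the size of the change depends on how low values are handled. The pseudocount scale gave 7.72-fold and the ratio of the mean FPKM gave 14.2-fold. The log2 fold change of ERBB3 was 1.18 with a pseudocount of 1, below the study's limit of 2, 3.70 with a pseudocount of 0.01 and 2.24 after quantile normalization, and ERBB3 was called in each.

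ERBB2 was the receptor with the highest level. It lies on chromosome 19 from 40721836 to 40746517, and its FPKM was 18.4, 18.8 and 18.8 in control and 23.8, 22.7 and 23.0 after butyrate. The 2 groups did not overlap and each varied little. ERBB2 rose by a log2 fold change of 0.31 ± 0.06 (SE; limma, Benjamini-Hochberg adjusted p = 0.00299). In absolute size this change exceeded that of only 30.5% of tested genes. A locus named LOC107131520 shares 1460 bases with ERBB2 and was listed at 0 in every culture.

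EGFR, on chromosome 22 from 890106 to 1107725, was expressed well below ERBB2. Its FPKM was 2.38, 2.20 and 2.67 in control and 4.44, 3.61 and 3.17 after butyrate, so that the lowest butyrate value lay above the highest control value. EGFR rose by a log2 fold change of 0.60 ± 0.17 (SE; limma, Benjamini-Hochberg adjusted p = 0.0162). The rise of EGFR was not called without control replicate 2 (limma, adjusted p = 0.0507), without butyrate replicate 1 (limma, adjusted p = 0.06) or after quantile normalization, where the log2 fold change was 0.37 (limma, adjusted p = 0.109).

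The receptor make-up shifted accordingly. The summed FPKM of EGFR, ERBB2, ERBB3 and ERBB4, the remaining receptor of the family, was 21.2 ± 0.373 (SD, n = 3) in control and 28.5 ± 1.57 (SD, n = 3) after butyrate. ERBB2 made up 87.9% ± 1.19 (SD, n = 3) of this sum in control and 81.4% ± 2.73 (SD, n = 3) after butyrate. The share of ERBB3 went from 0.508% ± 0.145 (SD, n = 3) to 5.32% ± 1.16 (SD, n = 3), and that of EGFR from 11.4% ± 0.933 (SD, n = 3) to 13.1% ± 1.56 (SD, n = 3). The shares of ERBB2 and ERBB3 did not overlap between groups, whereas those of EGFR did. ERBB4 was at most 0.108 FPKM in any culture and was too low to be tested.

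The ratio of ERBB3 to ERBB2 was 0.00767, 0.00453 and 0.00515 in control and 0.0845, 0.0600 and 0.0526 after butyrate. The ratio of ERBB3 to EGFR was 0.0595, 0.0387 and 0.0363 in control and 0.453, 0.377 and 0.383 after butyrate. For the comparison on the log2 scale, 0.1 was added to each FPKM before the ratios were taken. With it these ratios differed between groups by 2.64 and 2.35, each with no overlap (two-sided exact permutation test, p = 0.1, below which a design of 3 against 3 cannot go). The added 0.1 is close to the control level of ERBB3, so both differences are smaller than those of the ratios printed above. On the same scale the ratio of EGFR to ERBB2 differed by 0.29 and its groups overlapped (two-sided exact permutation test, p = 0.2). Together with the ratio of AREG to EREG given below, these 4 ratios were chosen after the values were seen, and no p of this size passes an adjustment.

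**Figure D2:**
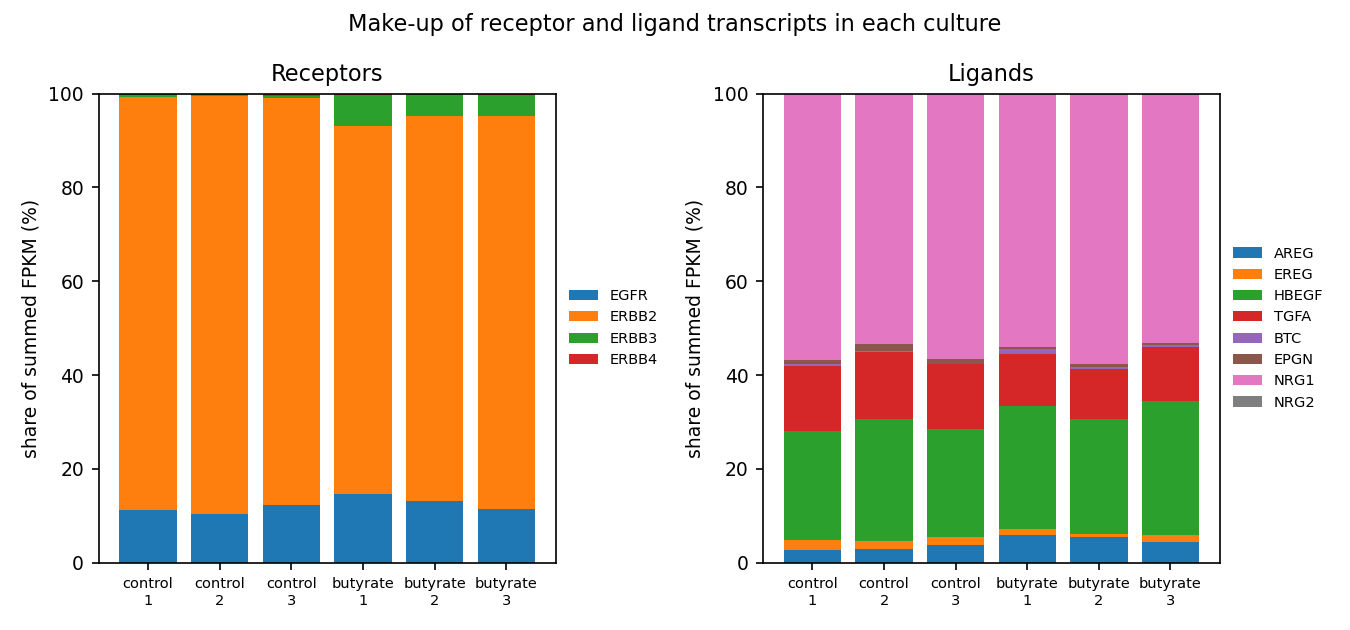
Share of each gene in the summed FPKM of the receptors (left) and of the 8 ligands above 0 (right), as stacked bars for each of the 6 cultures. ERBB2 fills 78.4% to 89.1% of the receptor bars, the ERBB3 segment is visible mainly in the butyrate cultures, and NRG1 fills 53.0% to 57.3% of the ligand bars.

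Of the ligands, AREG was called higher and TGFA lower, while EREG, BTC and HBEGF were not called. AREG, a ligand that binds EGFR with low affinity, lies on chromosome 6 from 91126256 to 91138401. Its FPKM was 1.95, 1.96 and 2.51 in control and 4.12, 4.03 and 3.07 after butyrate. The groups did not overlap, with about 18.9 to 25 implied fragments per control culture and 29 to 38.9 per butyrate culture. AREG rose by a log2 fold change of 0.78 ± 0.18 (SE; limma, Benjamini-Hochberg adjusted p = 0.00617), and it was also called with each culture left out in turn.

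TGFA, which binds EGFR and is released by ADAM17, lies on chromosome 11 from 13872050 to 13990694. Its FPKM was 9.53, 9.92 and 9.13 in control and 7.69, 7.75 and 8.11 after butyrate. The groups did not overlap, and the mean went from 9.53 ± 0.394 (SD, n = 3) to 7.85 ± 0.230 (SD, n = 3). This was a log2 fold change of -0.28 ± 0.09 (SE; limma, Benjamini-Hochberg adjusted p = 0.0285). The call of TGFA was lost when control replicate 1 (limma, adjusted p = 0.0638), control replicate 2 (0.088), butyrate replicate 1 (0.0647) or butyrate replicate 2 (0.0606) was left out. It was also lost with the replicate block (limma, adjusted p = 0.0597) and after rescaling to TPM, where the log2 fold change was -0.15 (limma, adjusted p = 0.172).

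EREG, a ligand of EGFR and ERBB4, lies on chromosome 6 from 91054298 to 91073701. Its FPKM was 1.36, 1.32 and 1.13 in control and 0.923, 0.503 and 1.04 after butyrate, with butyrate replicate 2 well below the other two. The groups did not overlap, and the log2 fold change was -0.62 with a 95% interval from -1.28 to 0.05 (limma, Benjamini-Hochberg adjusted p = 0.0993). After quantile normalization EREG was called lower, with a log2 fold change of -1.16 (limma, adjusted p = 0.0141). A locus named LOC104968898 shares 4165 bases with EREG and was at most 0.206 FPKM in any culture. The tables do not say whether strand was used in counting, so fragments from the shared stretch cannot be assigned with certainty.

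BTC, which binds EGFR and ERBB4, lies on chromosome 6 from 91430299 to 91480129 and was the ligand of this group with the lowest level. Its FPKM was 0.213, 0.135 and 0.107 in control and 0.683, 0.376 and 0.266 after butyrate. These values rest on about 5 to 9.59 implied fragments per control culture and 11 to 28 per butyrate culture. BTC had a log2 fold change of 1.05 with a 95% interval from 0.11 to 2.0, which did not pass the adjustment (limma, Benjamini-Hochberg adjusted p = 0.0545). BTC was called without butyrate replicate 3 (log2 fold change of 1.30, limma, adjusted p = 0.0366), without the mean-variance trend (limma, adjusted p = 0.0373) and after rescaling to TPM (limma, adjusted p = 0.0416). In the other direction, the log2 fold change of BTC was 0.18 after quantile normalization (limma, adjusted p = 0.736), 0.31 with a pseudocount of 1 (0.0642) and 0.75 without butyrate replicate 1 (0.166).

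HBEGF, a heparin-binding ligand, lies on chromosome 7 from 53216665 to 53227848 and was the ligand of this group with the highest level. Its FPKM was 16.2, 17.9 and 15.2 in control and 18.2, 17.8 and 19.9 after butyrate, and the groups overlapped. HBEGF had a log2 fold change of 0.18 with a 95% interval from -0.02 to 0.38 (limma, Benjamini-Hochberg adjusted p = 0.106). HBEGF was called higher only after rescaling to TPM, among the alternatives run, with a log2 fold change of 0.31 (limma, adjusted p = 0.0142).

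The summed FPKM of AREG, EREG, HBEGF, TGFA and BTC was 29.5 ± 1.56 (SD, n = 3) in control and 31.5 ± 0.980 (SD, n = 3) after butyrate, and its ranges overlapped. Within this sum, TGFA took 31.8% to 32.6% in control and 24.3% to 25.5% after butyrate, with no overlap, and AREG went from 7.29% ± 1.42 (SD, n = 3) to 11.9% ± 2.11 (SD, n = 3). HBEGF made up the largest share in both groups, with 55.6% ± 1.54 (SD, n = 3) and 59.1% ± 2.05 (SD, n = 3). The ratio of AREG to EREG was 1.44, 1.49 and 2.21 in control and 4.46, 8.01 and 2.95 after butyrate, with no overlap (two-sided exact permutation test, p = 0.1, again the lower limit).

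ERRFI1 encodes MIG6, a cytoplasmic protein that binds the kinase domain of the receptors and inhibits them, and it is itself induced by ERK signalling. It lies on chromosome 16 from 46201192 to 46215465 and had the highest level of the 9 genes in both groups. Its FPKM was 27.9, 26.2 and 28.9 in control and 27.9, 32.9 and 27.8 after butyrate, and the groups overlapped. ERRFI1 had a log2 fold change of 0.09 with a 95% interval from -0.10 to 0.28 (limma, Benjamini-Hochberg adjusted p = 0.377). The interval of ERRFI1 lies below the point estimates for EGFR, AREG and ERBB3. It overlaps the 95% interval of EGFR, which starts at 0.20, and the difference between these genes was not tested.

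**Figure D3:**
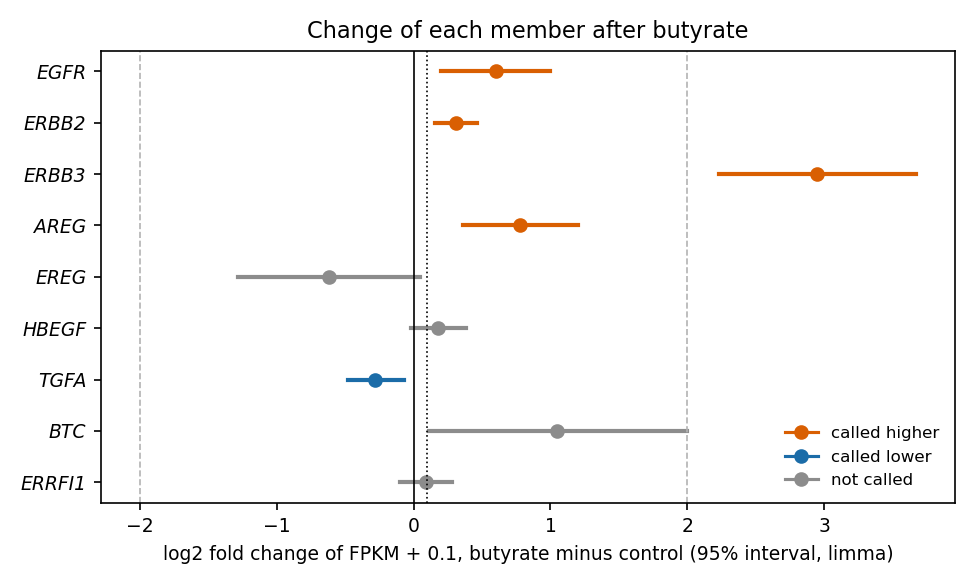
Log2 fold change of FPKM + 0.1, butyrate minus control, for the 9 genes (points) with the 95% interval from limma (lines), coloured by call. Dashed lines mark the study's fold limit of 2 in each direction and the dotted line the median of all tested genes, 0.10. ERBB3 at 2.95 is the only gene whose whole interval lies beyond the limit.

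The order of the levels was nearly the same in both groups. In control it ran from ERRFI1 through ERBB2, HBEGF, TGFA, EGFR, AREG, EREG and BTC to ERBB3. Neighbouring genes in this order did not overlap, except EGFR with AREG and BTC with ERBB3. After butyrate ERBB3 stood above EREG and BTC, both of which it did not overlap. EGFR and AREG, each with a mean of 3.74 FPKM, again overlapped, as did EREG and BTC.

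EPGN, which encodes the EGFR ligand epigen, lies next to EREG, AREG and BTC, and the 4 ligand genes span 488 kb of chromosome 6 with no other listed gene wholly inside. Within this stretch the differences had both signs. EPGN went from 0.776 ± 0.233 (SD, n = 3) FPKM to 0.373 ± 0.131 (SD, n = 3), a log2 difference of -0.90 (limma, Benjamini-Hochberg adjusted p = 0.0477). The call of EPGN was lost without any one of control replicates 1 to 3 (limma, adjusted p = 0.0669, 0.157 and 0.0632) or without butyrate replicate 1 (0.102) or 3 (0.13). It was also lost with a pseudocount of 0.01, without a filter and after rescaling to TPM. EPGN lies wholly inside the locus LOC104968898, which also overlaps EREG, so its fragments are subject to the same uncertainty. EREG, which was not called, also had a negative value, and AREG and BTC, of which AREG was called, had positive values. Of the flanking genes, named after their values were seen, MTHFD2L had a log2 fold change of -0.34 and was not called (limma, adjusted p = 0.0546). CXCL3 and GRO1, which encode neutrophil-attracting chemokines, were called higher with log2 fold changes of 2.40 and 2.54, and PARM1, on the side of BTC, with 1.87.

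**Figure D4:**
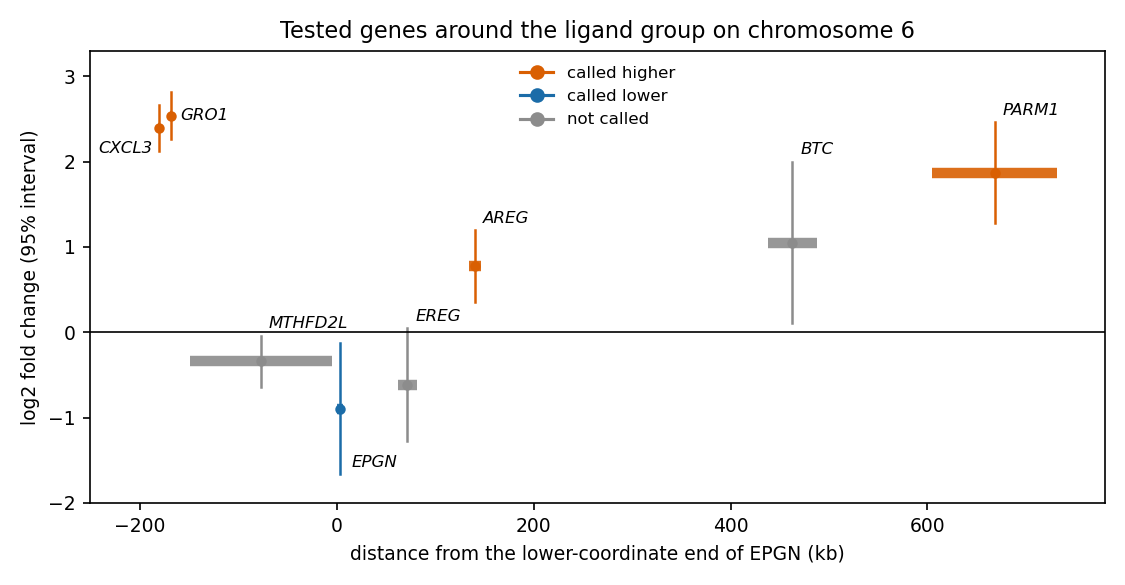
Log2 fold change, butyrate minus control, of the tested genes around the ligand group on chromosome 6 against the distance in kb from the lower-coordinate end of EPGN. Horizontal bars show the extent of each gene, vertical lines the 95% interval from limma and colours the call. EPGN and EREG lie below 0 and AREG and BTC above it.

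The other family members gave the ligand context of ERBB3. NRG1, a neuregulin that binds ERBB3 and ERBB4, was the ligand gene with the highest level and had 37.9 ± 1.11 (SD, n = 3) FPKM in control and 38.7 ± 2.69 (SD, n = 3) after butyrate. NRG1 thus had a log2 fold change of 0.03 ± 0.07 (SE; limma, Benjamini-Hochberg adjusted p = 0.762). NRG1 made up 55.6% ± 1.88 (SD, n = 3) of the summed FPKM of the 8 ligands above 0 in control and 54.7% ± 2.34 (SD, n = 3) after butyrate. NRG2 was listed at 0 in all 3 control cultures and at 0.228, 0.103 and 0.116 FPKM after butyrate. EGF, NRG3 and NRG4 were listed at 0 in every culture.

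A list of 48 other genes of the pathway was described by counts. Of its 43 tested genes, 17 were called higher and 11 lower, which is 65.1% against the 58.4% of all tested genes, and none passed the study's DEG threshold. The median log2 fold change was 0.08 against 0.10 over all tested genes. The counts by group below were not tested against each other.

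Of the 6 genes of ligand shedding, 4 were called (66.7%, against 58.4% of all tested genes), and these 4 were higher. RHBDF1 and FRMD8 were not called and had log2 fold changes of -0.19 and 0.25. TIMP3, an inhibitor of ADAM17 and other metalloproteases, rose from 949 ± 17.0 (SD, n = 3) to 2211 ± 78.8 (SD, n = 3) FPKM, a log2 difference of 1.22 (limma, Benjamini-Hochberg adjusted p = 7.17e-08). ADAM10, the protease that releases BTC, had a log2 fold change of 0.41. ADAM17, which releases TGFA, AREG and HBEGF, and RHBDF2, which carries ADAM17 to the surface, each had 0.20. Both calls were lost with the replicate block (limma, adjusted p = 0.0589 and 0.0684) and without control replicate 2 (0.0876 and 0.0909). That of ADAM17 was also lost without control replicate 3 (0.0653) or butyrate replicate 3 (0.0737), and that of RHBDF2 without control replicate 1 (0.103), butyrate replicate 1 (0.0786) or butyrate replicate 2 (0.0886).

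Of the 7 adaptors and proximal enzymes, 2 were called higher and 2 lower (57.1% called, against 58.4% of all tested genes). PLCG1, a phospholipase recruited to active receptors, had a log2 fold change of 1.13 and the docking protein GAB1 had 0.46. PTPN11, which encodes the phosphatase SHP2 that promotes RAS activation, fell from 20.3 ± 1.95 (SD, n = 3) to 10.1 ± 1.59 (SD, n = 3) FPKM, a log2 difference of -1.01 (limma, Benjamini-Hochberg adjusted p = 0.000155).

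Of the 10 genes of the RAS-ERK cascade, 2 were called higher and 5 lower (70.0% called, against 58.4% of all tested genes). MAPK3, which encodes ERK1, and MAP2K2, which encodes MEK2, had log2 fold changes of 0.78 and 0.52, and the call of MAPK3 was lost without control replicate 1 (limma, adjusted p = 0.056), butyrate replicate 1 (0.0616) or butyrate replicate 3 (0.0697) and after quantile normalization (0.097). The kinase gene ARAF had a log2 fold change of -0.65. Of the 7 genes of the PI3K and STAT arm, 3 were called higher and 2 lower (71.4% called, against the same 58.4%). PIK3CA, a catalytic subunit of PI3K, fell from 7.56 to 3.72 FPKM on average, while STAT3, a transcription factor activated by the receptors, had a log2 fold change of 0.83.

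Of the 11 genes of receptor turnover and restraint, 6 were called higher and 1 lower (63.6% called, against 58.4% of all tested genes). LRIG1, which promotes degradation of the receptors, rose from 14.5 ± 0.476 (SD, n = 3) to 22.6 ± 0.435 (SD, n = 3) FPKM, a log2 difference of 0.63 (limma, Benjamini-Hochberg adjusted p = 6.91e-05). Its relative LRIG3 had a log2 fold change of 1.11. PTPN1, a phosphatase that dephosphorylates EGFR, had -0.58.

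**Figure D5:**
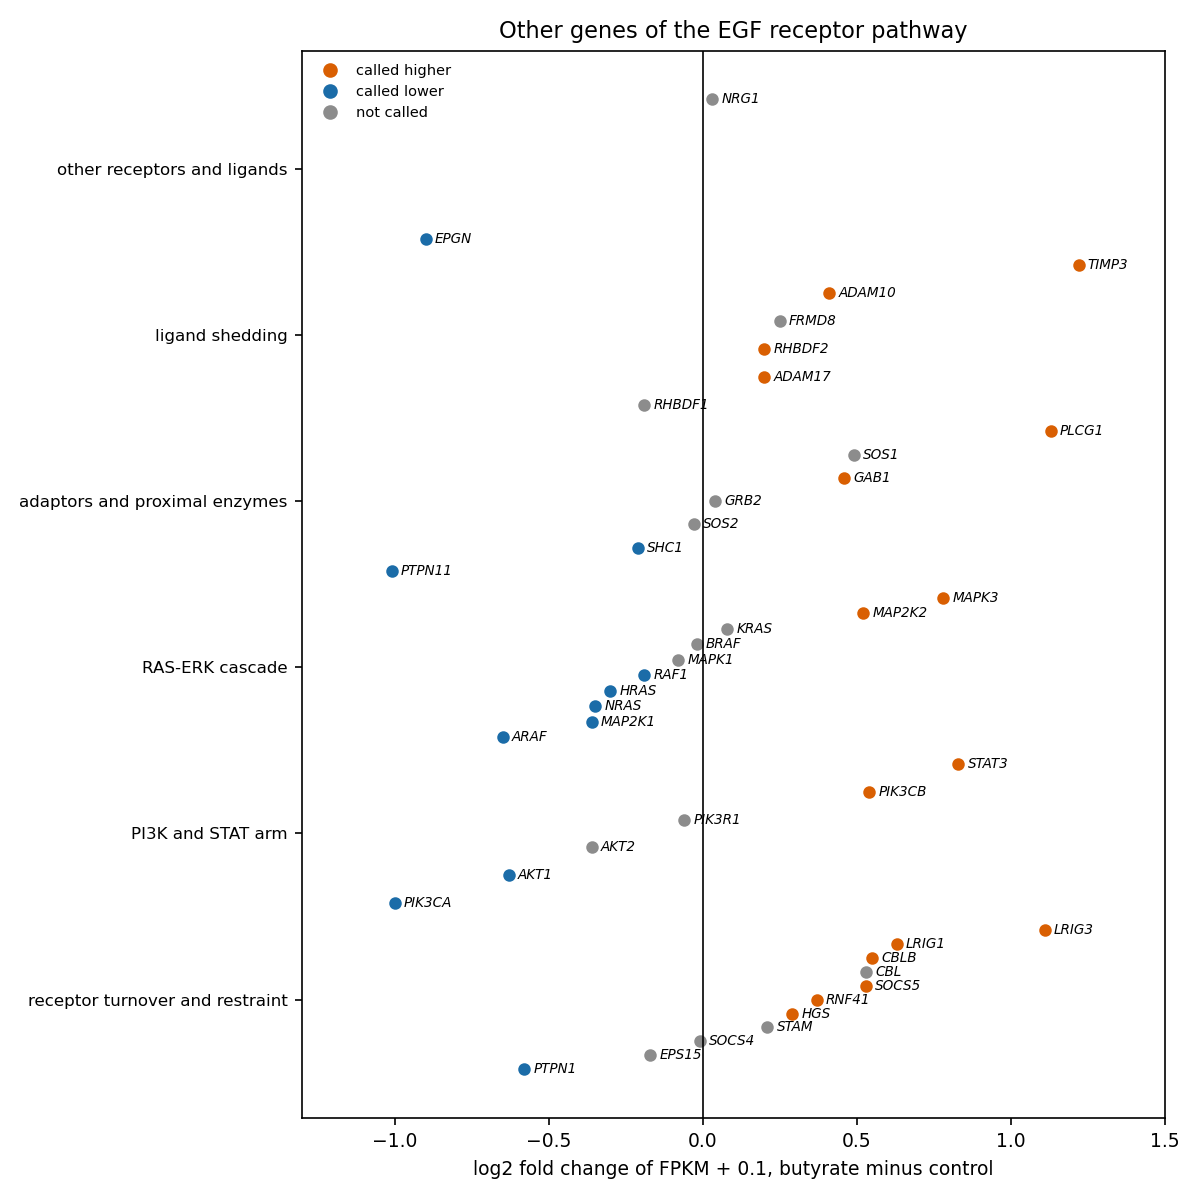
Log2 fold change of FPKM + 0.1, butyrate minus control, for the tested genes of the pathway list other than 1 that is not shown, in rows by group and coloured by call. The values lie between -1.01 and 1.22, below the ERBB3 change of 2.95.

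Markers of cell types were read in the same tables. The cultures expressed epithelial markers, and 8 of 9 were above 1 FPKM in every culture, while EPCAM was at 0.540 ± 0.174 (SD, n = 3) in control. The summed FPKM of the 9 was 2426 to 2538 in control and 5081 to 5175 after butyrate. Of the 9, 7 were called higher and 1, KRT5, lower (88.9% called, against 58.4% of all tested genes). The value of KRT5 was -0.17 and turned to 0.06 after quantile normalization, where KRT5 was not called. Its call was also lost without the mean-variance trend (limma, adjusted p = 0.138), without a filter (0.0607) and after rescaling to TPM (0.513). With each culture left out in turn, KRT5 was called only without control replicate 3. KRT14 and KRT19, keratins of basal and simple epithelia, had log2 fold changes of 2.78 and 1.99, and EPCAM had 2.44. TP63 had 0.38, and CDH1 had -0.03 and was not called (limma, adjusted p = 0.707). Fibroblast markers were also abundant, led by COL1A1, with a sum over 7 genes of 1905 to 1961 in control and 2696 to 2955 after butyrate. The 2 mesothelial markers summed to 228 to 238 in control and 550 to 585 after butyrate. The 3 smooth muscle markers summed to 424 to 435 and 368 to 411, the 4 leukocyte markers to 5.12 to 7.15 and 7.23 to 9.38, and the 4 endothelial markers to 1.95 to 2.07 and 6.48 to 8.43. The smooth muscle sum was almost all ACTG2, at 429 FPKM on average in control and 386 after butyrate. ACTG2 and MYH11 were called lower, with log2 fold changes of -0.15 and -2.02, and DES higher, with 2.07. MYH11 went from 0.662 to 0.0762 FPKM on average and DES from 0.367 to 1.60. PTPRC and CDH5, the defining genes of leukocytes and endothelium, were listed at 0 in every culture. Of the other markers of these lists, VWF, PECAM1 and CD68 were called higher, and CD3E and KDR were too low to be tested. VWF went from 0.456 to 3.31 FPKM on average, PECAM1 from 1.54 to 3.95 and CD68 from 0.595 to 1.21. CD14, which made up most of the leukocyte sum, had 5.57 FPKM on average in control and 6.80 after butyrate. Its groups overlapped and it was not called (limma, adjusted p = 0.2). The epithelial, fibroblast, mesothelial, endothelial and leukocyte sums were all higher after butyrate with no overlap, the same direction as ERBB3, EGFR, ERBB2 and AREG, and their part in those differences was not tested. In such bulk samples, a change in the number of cells of a type and a change of RNA per cell cannot be told apart.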

How the data were processed

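The 6 RNA-seq libraries of REPC comprised 3 butyrate and 3 control cultures. Per the labels and the study's methods, reads were trimmed (Trim Galore 0.4.1) and aligned (STAR), and from those mapped uniquely Cufflinks estimated the FPKM of each gene and its confidence bounds, which the authors deposited. The submitters' processing notes name UMD 3.1. Versions of STAR and Cufflinks are not given in the sources used here.

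Rows were joined by identifier, name and position. Sequences were placed on chromosomes by the study's gene tables, where 1139 of 1142 genes lay on the assigned chromosome. Start positions were raised by 1 because those of the FPKM tables were taken to count from 0. Of the 1142 genes, 253 started 1 below the study's gene tables, 3 at the same base and 10 at 1 above. The rest did not match within 1 base, so the printed positions are those of the FPKM tables. A failed estimate removed 2 genes. FPKM are not counts, so limma 3.58.1 in R 4.3.3 was run on log2(FPKM + 0.1), fitting the trend of variance with mean and no replicate term, and tested on simulated data. The FPKM tables hold no counts. Implied fragments were taken as the square of 2 times the FPKM over the distance to its upper bound, an approximation that sums to between 5756609 and 6186809 per culture. They rest on the bounds of each culture alone and do not cover the spread between cultures. What else enters the bounds was not tested, and for ERBB2 and EREG the fragments gave another size of change than FPKM. Exact permutation tests used scipy 1.17.1, figures matplotlib 3.10.9.

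All 9 members are described whatever their result. For the pathway list, the 3 called genes with the largest change in each group are named, plus NRG1 and ADAM17, except 1 gene that is counted but not reported here. A name on several rows counts once, at its highest mean. Members, lists and rules were chosen with earlier results of these data known. Alternatives were other pseudocounts, filters and scalings, no trend, other thresholds, a replicate block and each culture left out. Ratios of group means, ratios between members, and the alternatives for genes beside the members were added after seeing the data. The strandedness of counting is not given in the sources used here. No sequences were used here.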

Additional observations from a re-analysis of the deposited data

How the results depend on the processing

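The directions of the 9 genes were the same under every alternative run, and 4 genes were called higher in the main analysis, with 3 to 6 in the alternatives. The 1 gene called lower became 0 after rescaling to TPM and with the replicate block and 2 after quantile normalization, and ranged from 0 to 1 with a culture left out. The 0 genes past the study's threshold became 1, ERBB3, with Benjamini-Hochberg adjustment. The 11 pathway genes called lower became 7 after rescaling to TPM. Rescaling to TPM moved the median log2 fold change of all genes by 0.12 and quantile normalization by -0.15. Genes called higher and lower numbered 5144 and 4091 in the main analysis, 5924 and 3387 after rescaling to TPM and 4284 and 4679 after quantile normalization. The log2 fold change of ERBB3 was 3.83 as a ratio of group means, 1.18 with a pseudocount of 1 and 2.24 after quantile normalization, and ranged from 2.75 to 3.09 with a culture left out. ERBB3 and BTC had no value with a mean FPKM of at least 1. NRG1, not called in any alternative, went from 0.03 to -0.03 without butyrate replicate 2. KRT5 had 0.06 after quantile normalization. CDH1, at -0.03 in the main analysis, had 0.10 after rescaling to TPM and 0.04 after quantile normalization. Over all genes, the 627 DEGs of the limma fit became 375 without a filter, 354 without the trend and 409 with the replicate block. They ranged from 332 to 503 with a culture left out. Their number was 355, 332 and 367 when butyrate replicates 1 to 3 were left out in turn. Same-numbered cultures deviated with correlations of 0.0228, -0.00431 and 0.00177 across genes. These values show no common deviation by replicate number, but they cannot tell whether the cultures were set up in pairs. With the replicate block the calls of TGFA, RHBDF2 and ADAM17 were lost. Causes were not tested. Low FPKM limits the precision for ERBB3, BTC, EREG and EPGN. Few implied fragments limit it for AREG, with a mean of about 21.3 per control culture and 35.6 per butyrate culture.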

Other observations

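The bounds of ERBB2 imply fragments whose ratio of group means gives a log2 fold change of 0.51, against 0.31 from FPKM, whereas both measures gave 3.83 for ERBB3. For EGFR fragments and FPKM gave 0.59 and 0.63, and for AREG 0.74 and 0.81. The gap was wider for EREG, with -0.90 and -0.63. BTC had 1.38 and 1.54, TGFA -0.36 and -0.28, HBEGF 0.21 and 0.18, and ERRFI1 0.03 and 0.09. Among the butyrate cultures, replicate 1 had the highest value for 5 of the 9 genes, EGFR, ERBB2, ERBB3, AREG and BTC, replicate 3 for EREG, HBEGF and TGFA, and replicate 2 for ERRFI1.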
